A study of Mus musculus with 6 samples.

Results

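Postganglionic sympathetic neurons keep their cell bodies in ganglia outside the organs they supply and send unmyelinated axons into the outer wall of arteries, where they release noradrenaline and neuropeptide Y onto vascular smooth muscle cells (VSMCs). Noradrenaline is made from tyrosine by a short chain of enzymes, is loaded into vesicles and is taken back into the nerve ending by a transporter. Most mRNA of such a neuron lies in its cell body, with a smaller part in the axon.

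The sympathetic neuron genes described here are 30 genes, a set of noradrenergic genes together with genes shared by most neurons, out of the 55426 genes of the deposited expression table, and they were found in it by exact gene symbol. All 30 were present and all 30 had a mean over the libraries of at least 0.5 TPM (a transcript level scaled to transcript length and to a fixed total per library, so that levels of different genes can be set side by side), the minimum used for testing. The tissue was abdominal aorta, from male C57BL/6J mice. In *Prdm16*SMKO mice both *Prdm16* alleles were floxed (*Prdm16* fl/fl) and *Myh11*-CreERT2, a tamoxifen-activated Cre recombinase carried on the Y chromosome and driven by the smooth muscle myosin promoter, was present. Control mice carried *Myh11*-CreERT2 without the floxed alleles. Male mice of the study received tamoxifen at 75 mg/kg/day for 5 days from 8 to 10 weeks of age, and the time from tamoxifen to RNA collection was not given in the sources used here. There were 3 libraries per group. The deletion is therefore directed at smooth muscle, not at neurons. The depth of each library is unknown, because TPM keeps no read total (the protocol states only an average over libraries), and how the aorta was trimmed of ganglia, nerve or fat was not given in the sources used here.

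Both genotypes had the transcripts of vascular smooth muscle: the 6 VSMC markers summed to between 11185 and 24754 TPM. *Prdm16*, the targeted gene, reached 33.4, 36.8 and 30.8 TPM in the controls and 20.8, 27.7 and 14.8 TPM in *Prdm16*SMKO (replicates 1, 2 and 3 of each group, an order kept for all values below), so the groups did not overlap, although the difference did not pass correction over all genes (log2 fold change -0.70, SE 0.22, adjusted p = 0.376, limma with Benjamini-Hochberg adjustment). Adipocyte, skeletal muscle and endothelial markers also differed between libraries, as described with the neighbouring cell types.

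The sympathetic neuron genes were not spread evenly over the 6 aortas. They were highest in 1 library of each genotype, *Prdm16*SMKO replicate 1 and control replicate 2, and the 30 genes together made up 0.00735%, 0.0327% and 0.00569% of all TPM in control replicates 1, 2 and 3 and 0.143%, 0.0136% and 0.0093% in *Prdm16*SMKO replicates 1, 2 and 3. Outside these 2 libraries *Uchl1*, described below, made up most of the summed TPM of the 30 genes. *Prdm16*SMKO replicate 1 had the highest level of the 6 libraries for 29 of the 30 genes. Control replicate 2 had the highest level of the 3 controls for all 30. These 2 libraries carry different genotypes, and since each is 1 aorta their values are given singly and not averaged.

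Among the 23 of the 30 genes with a promoter in the RefSeq table (GRCm38.p6), 3 held the cyclic AMP response element TGACGTCA, the site bound by CREB family factors, within 250 bases before a transcription start. They were *Th* and the granin genes *Chgb* and *Scg2*, all of them named below for their levels in the same 2 libraries. The 120 bases before the start of each are printed 5′ to 3′ on the gene's own strand, with the element in capitals, to show how near the start it lies (45, 72 and 68 bases from the first base of the element to the start).
Th (chr7:142899996-142900115, minus strand): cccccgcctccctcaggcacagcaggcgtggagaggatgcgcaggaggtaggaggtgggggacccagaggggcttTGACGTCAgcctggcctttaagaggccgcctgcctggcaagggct
Chgb (chr2:132781522-132781641, plus strand): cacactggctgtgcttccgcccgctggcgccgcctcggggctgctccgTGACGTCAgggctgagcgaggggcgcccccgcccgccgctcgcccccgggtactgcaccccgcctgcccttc
Scg2 (chr1:79440027-79440146, minus strand): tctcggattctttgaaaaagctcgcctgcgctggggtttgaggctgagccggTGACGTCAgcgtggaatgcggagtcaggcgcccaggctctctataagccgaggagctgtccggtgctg
The element reads the same on both strands. It was present in 1.55% of the 32851 promoters of the table over the same 250 bases. That share counts promoters, whereas the 23 genes, with 31 promoters between them, are counted as genes, so the shares are not in the same unit. Each of 3 other motifs was searched on both strands. The TATA box letters TATAAA were found in *Ddc* and *Prph* (12.4% of all promoters). The homeodomain core TAATTA was found in *Elavl4* and *Hand2* (4.84%), and the GATA letters AGATAA in 5 genes, *Scg2*, *Stmn3*, *Hand2*, *Syt1* and *Slc18a2* (9.99%). In *Hand2* the TAATTA and AGATAA matches overlap. A match describes letters only.

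The genes of noradrenaline synthesis, storage and uptake differed widely between libraries. *Th*, tyrosine hydroxylase, the rate-limiting enzyme of catecholamine synthesis (chromosome 7, minus strand), was listed at 0, 8.43 and 0 TPM in the controls and at 67.6, 0.13 and 0 TPM in *Prdm16*SMKO. *Ddc*, the decarboxylase that turns DOPA into dopamine, was at 0.39, 8.19 and 0.49 TPM in the controls and at 56.1, 0.55 and 0.12 TPM in *Prdm16*SMKO. *Dbh*, dopamine beta-hydroxylase, which makes noradrenaline inside the vesicle, was listed at 0, 13.8 and 0 TPM in the controls and at 84.6, 0 and 0 TPM in *Prdm16*SMKO. In the 4 aortas other than control replicate 2 and *Prdm16*SMKO replicate 1, all 3 enzymes were thus at 0.55 TPM or less. *Slc18a2*, the vesicular monoamine transporter, was at 0.7, 3.48 and 0.38 TPM in the controls and at 20.6, 0.9 and 0.59 TPM in *Prdm16*SMKO. *Slc6a2*, the noradrenaline transporter of the nerve ending, was at 1.22, 8.61 and 1.09 TPM in the controls and at 56.0, 1.41 and 0.51 TPM in *Prdm16*SMKO. Both transporters kept a low level in every library, whereas *Th* and *Dbh* did not. As group values, *Th* was at 2.81 ± 4.87 TPM in controls and 22.6 ± 39.0 TPM in *Prdm16*SMKO (SD, n = 3 each) and *Dbh* at 4.6 ± 7.97 and 28.2 ± 48.9 TPM (SD, n = 3 each), with SDs above the means in both groups.

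The peptide cargo of noradrenergic vesicles followed the same libraries. *Npy*, neuropeptide Y, the vasoconstrictor peptide released together with noradrenaline, was at 0, 39.7 and 0.34 TPM in the controls and at 235, 0.32 and 0 TPM in *Prdm16*SMKO. In control replicate 2 and *Prdm16*SMKO replicate 1 it was the most abundant of the 30 genes after *Uchl1*. It made up 12.2% of the summed TPM of the 30 genes in control replicate 2 and 16.5% in *Prdm16*SMKO replicate 1. The granins *Chga*, *Chgb* and *Scg2*, which help form dense-core vesicles, were lower: 2.29, 3.45 and 3.11 TPM in control replicate 2 and 16.1, 12.9 and 14.5 TPM in *Prdm16*SMKO replicate 1. In each of the 4 other libraries the granins were between 0 and 0.29 TPM.

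The transcription factors split into a pair that behaved as the enzymes did and 3 that did not. *Hand2*, which maintains the noradrenergic programme, was at 0.66, 4.84 and 0.49 TPM in the controls and at 24.4, 1.52 and 0.85 TPM in *Prdm16*SMKO. *Phox2a*, a homeodomain factor that acts upstream of *Th* and *Dbh*, was at 1.9 TPM in control replicate 2, at 9.95 TPM in *Prdm16*SMKO replicate 1, and at 0.07 TPM or less elsewhere. *Gata2* was at 6.67, 8.36 and 6.22 TPM in the controls and at 15.7, 18.02 and 6.55 TPM in *Prdm16*SMKO. *Gata3* was at 2.47, 3.04 and 1.81 TPM in the controls and at 4.89, 4.63 and 1.94 TPM in *Prdm16*SMKO. *Isl1* was at 0.61, 2.45 and 0.91 TPM in the controls and at 7.0, 5.68 and 1.1 TPM in *Prdm16*SMKO. For these 3 factors *Prdm16*SMKO replicate 2 was above control replicate 2, an order seen in no other gene of the 30. *Gata2* is also a factor of endothelial cells, and the 4 endothelial markers summed to 366 TPM in *Prdm16*SMKO replicate 2 against 131 to 196 TPM in the other 5 libraries. The part of the endothelium in the *Gata2* values was not tested.

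The genes of synaptic vesicle release differed in how far they were limited to the same libraries. *Snap25*, a SNARE protein of the presynaptic membrane, was at 0.25, 7.46 and 0 TPM in the controls and at 48.1, 0.13 and 0 TPM in *Prdm16*SMKO. *Syt1*, the calcium sensor of vesicle fusion, was at 0.19, 3.71 and 0.07 TPM in the controls and at 26.5, 0.06 and 0.04 TPM in *Prdm16*SMKO. *Syp*, synaptophysin, a vesicle membrane protein, was at 4.54, 5.9 and 2.39 TPM in the controls and at 26.9, 3.55 and 4.3 TPM in *Prdm16*SMKO. *Syp* was therefore present in all 6 aortas, with control replicate 2 only 1.27-fold above the highest of the 4 lower libraries when 0.5 TPM was added to both, while *Snap25* was 10.6-fold above on the same scale.

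Axonal cytoskeleton genes were among the most abundant. *Tubb3*, a neuronal beta-tubulin, was at 0.23, 12.1 and 0.13 TPM in the controls and at 86.2, 1.5 and 0.95 TPM in *Prdm16*SMKO. *Prph*, peripherin, the intermediate filament of peripheral neurons, was at 0.24, 11.8 and 0.41 TPM in the controls and at 82.3, 0.37 and 0.11 TPM in *Prdm16*SMKO. *Stmn3*, a stathmin that binds tubulin, was at 0.1, 6.16 and 0.12 TPM in the controls and at 48.5, 0.55 and 0.19 TPM in *Prdm16*SMKO. In control replicate 2 these 3 genes lay close to *Th* and *Dbh* in level, and in *Prdm16*SMKO replicate 1 they did so again. *Stmn2*, a growth cone stathmin, was at 3.79, 11.7 and 4.77 TPM in the controls and at 57.7, 8.16 and 4.62 TPM in *Prdm16*SMKO. *Gap43*, a growth cone protein that Schwann cells can also express, was at 0.79, 4.89 and 0.89 TPM in the controls and at 23.2, 1.33 and 0.51 TPM in *Prdm16*SMKO. The neurofilament genes *Nefl*, *Nefm* and *Nefh* were at 2.66, 1.95 and 0.51 TPM in control replicate 2, at 20.8, 15.5 and 3.92 TPM in *Prdm16*SMKO replicate 1, and at 0.1 TPM or less in every other library.

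Of the remaining neuronal genes, *Uchl1*, an abundant ubiquitin hydrolase of neurons, stood apart because it was high everywhere. It was at 49.2, 137 and 35.9 TPM in the controls and at 293, 86.6 and 70.1 TPM in *Prdm16*SMKO. Alone it made up 42.0% of the summed TPM of the 30 genes in control replicate 2 and 20.5% in *Prdm16*SMKO replicate 1. In the other libraries *Uchl1* made up most of that sum. The sum was 73.5 TPM in control replicate 1 and 56.9 TPM in control replicate 3. It was 136 and 93.0 TPM in *Prdm16*SMKO replicates 2 and 3. *Rtn1*, a reticulon of neuronal endoplasmic reticulum, was at 0.87, 5.5 and 0.37 TPM in the controls and at 41.0, 0.66 and 0.29 TPM in *Prdm16*SMKO. *Elavl4*, a neuronal RNA-binding protein, was listed at 0 outside control replicate 2 (0.46 TPM) and *Prdm16*SMKO replicate 1 (3.55 TPM). The ganglionic nicotinic receptor, through which preganglionic fibres excite the neuron at its cell body, is built from the products of the neighbouring chromosome 9 genes *Chrna3* and *Chrnb4*. *Chrna3* was at 2.38 TPM in control replicate 2 and 15.6 TPM in *Prdm16*SMKO replicate 1 and at 0.04 TPM or less elsewhere. *Chrnb4* was at 0.68 TPM and 7.22 TPM in the same libraries and was listed at 0 in the other 4.

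**Figure D1:**
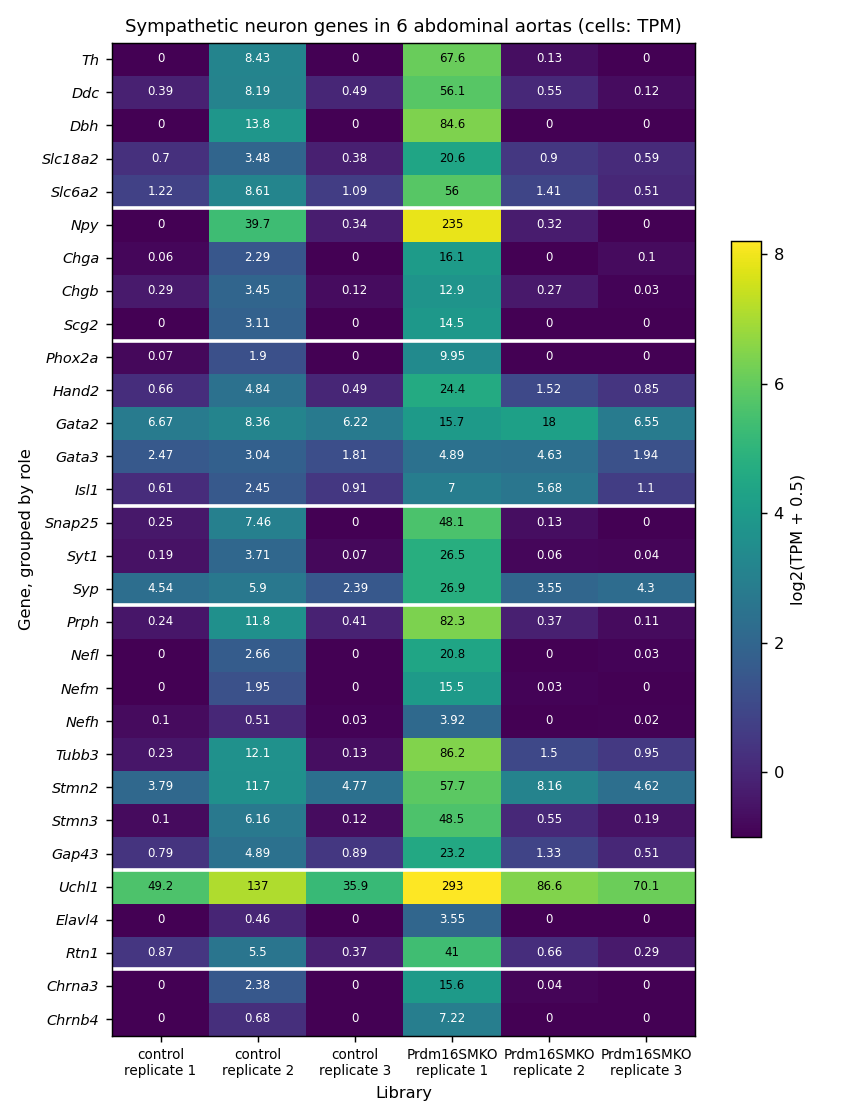
Levels of the 30 sympathetic neuron genes (rows, grouped by role and separated by white lines) in the 6 libraries (columns). Colour is log2(TPM + 0.5) and each cell prints the TPM. Control replicate 2 and *Prdm16*SMKO replicate 1 are brighter than the other 4 columns for most rows, with 10 genes, among them *Gata2*, *Gata3*, *Isl1*, *Syp*, *Stmn2* and *Uchl1*, above 1 TPM in some or all of the other columns.

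In the libraries with little signal, many of the genes were listed at exactly 0 TPM: 9 in control replicate 1, 11 in control replicate 3, 8 in *Prdm16*SMKO replicate 2 and 10 in *Prdm16*SMKO replicate 3, against 0 in control replicate 2 and 0 in *Prdm16*SMKO replicate 1. Levels under 1 TPM were found for 24, 24, 20 and 24 of the 30 genes in the same 4 libraries. *Dbh*, *Scg2*, *Elavl4* and *Chrnb4* were at 0 in all 4. The number of genes of the whole table above 0 was 21305, 22100 and 20332 in the controls and 21683, 21321 and 21359 in *Prdm16*SMKO, so the 2 libraries with none of the 30 genes at 0 also had the most genes detected. The part of depth in the zeros was not tested.

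A fixed order of libraries, *Prdm16*SMKO replicate 1 first and control replicate 2 second, held for 27 of the 30 genes and for 8.39% of all 15775 tested genes. This order was noticed in these genes and is given as a description. The 3 exceptions were *Gata2*, *Gata3* and *Isl1*. For the 20 genes that were under 1 TPM in each of the 4 other libraries, the level in *Prdm16*SMKO replicate 1 was a median of 7.01 times that in control replicate 2, with quartiles of 6.08 and 7.74, from 3.74 for *Chgb* to 10.6 for *Chrnb4*. Among them were *Npy* (5.92), *Th* (8.01), *Dbh* (6.13), *Prph* (6.99), *Snap25* (6.45) and *Chrna3* (6.53), genes of different function and abundance. These named genes cover only a part of the range of the 20. The 10 genes with a level of 1 TPM or more in another library included lower ratios, such as 2.13 for *Uchl1*, 1.88 for *Gata2* and 1.61 for *Gata3*. Over all tested genes the median ratio was 0.928, and 90% lay between 0.489 and 2.41 (the 5th and 95th percentiles). The libraries stem from bulk tissue, so fewer neuronal cells and less RNA per cell cannot be told apart in any of these values.

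**Figure D2:**
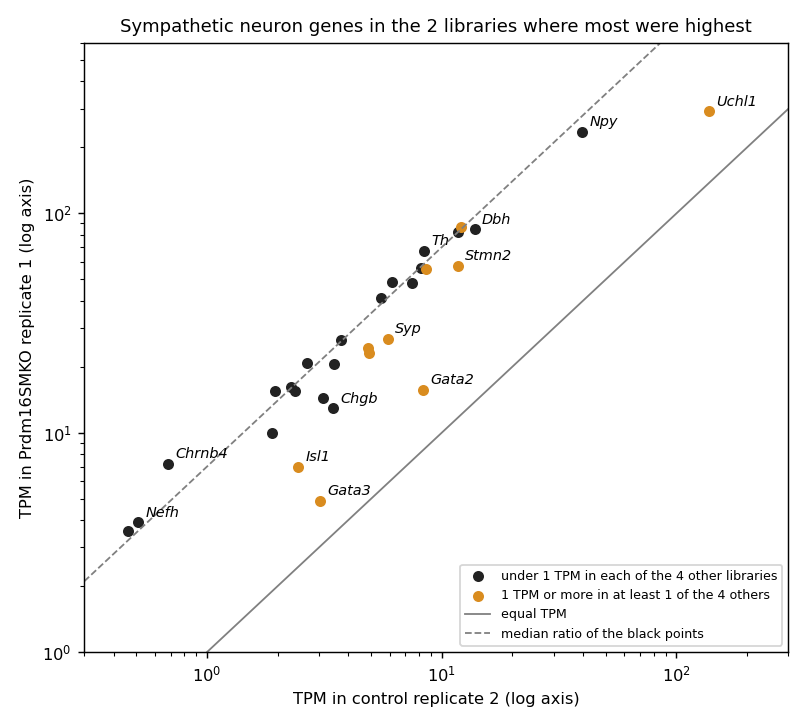
TPM of each of the 30 genes in control replicate 2 (horizontal) against *Prdm16*SMKO replicate 1 (vertical), both on log axes. Black points are the 20 genes under 1 TPM in each of the other 4 libraries, orange points the 10 others. The black points lie along the dashed line of their median ratio, 7.01, above the solid line of equal TPM, and *Gata2*, *Gata3*, *Isl1* and *Uchl1* lie nearer to that solid line.

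The comparison of genotypes asks whether loss of *Prdm16* in smooth muscle came with a different level of these neuronal transcripts. The 2 genotypes overlapped for each of the 30 genes, and no gene differed by limma on log2(TPM + 0.5) after Benjamini-Hochberg adjustment over the 15775 tested genes: 0 of 30 had an adjusted p under 0.05, against 0.355% of all tested genes, 0 of 30 had an unadjusted p under 0.05, against 8.74%, and 0 of 30 had groups that did not overlap, against 12.8%. With limma array weights 5 of the 30 were under an unadjusted 0.05, and 0 to 3 were under the other alternatives, and 0 passed adjustment in any of them. All 30 fitted log2 fold changes were above 0 (*Prdm16*SMKO minus control), from 0.49 for *Gata3* to 1.81 for *Tubb3*, with a median of 0.84, while the median over all tested genes was 0.02. The SE exceeded the fold change for the enzyme *Th*, the peptide *Npy* and *Dbh*. *Th* gave a log2 fold change of 1.09 with an SE of 1.85 (95% interval -3.11 to 5.29, adjusted p = 0.955, limma). *Npy* gave 0.84 with an SE of 2.37 (95% interval -4.56 to 6.23, adjusted p = 0.98, limma) and *Dbh* 0.86 with an SE of 2.02 (95% interval -3.73 to 5.45, adjusted p = 0.972, limma). These intervals run from a several-fold decrease to a several-fold increase, so neither a difference nor its absence was shown for the enzymes and the peptide.

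*Gata2* and *Isl1* had the smallest unadjusted p-values of the 30. *Gata2* had a log2 fold change of 0.77 with an SE of 0.34 (unadjusted p = 0.0516, adjusted p = 0.58, limma), and *Isl1* of 1.34 with an SE of 0.59 (unadjusted p = 0.0524, adjusted p = 0.584, limma). In both, *Prdm16*SMKO replicates 1 and 2 were above all 3 controls and *Prdm16*SMKO replicate 3 was inside the control range. Without *Prdm16*SMKO replicate 3 the log2 fold change was 1.20 for *Gata2* and 2.03 for *Isl1*, and neither passed adjustment (adjusted p = 0.168 and 0.258, limma).

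The direction of the genotype difference was set by 1 library. Without *Prdm16*SMKO replicate 1 the median log2 fold change of the 30 genes was -0.74, and 25 of the 30 were below 0. The values were -1.22 for *Th*, -1.61 for *Dbh* and -2.00 for *Npy* in that fit. *Gata2*, *Gata3*, *Isl1*, *Stmn2* and *Uchl1* were the 5 that kept a value above 0. Without control replicate 2 the median was 1.66, with all 30 above 0. Without both of these libraries, an alternative added after the data were seen that leaves 2 libraries per genotype, the median was 0.03, with 16 genes above 0, 10 below and the other 4 at exactly 0. In that fit *Tubb3* had a log2 fold change of 1.33 (adjusted p = 0.454, limma) and *Uchl1* of 0.88 (adjusted p = 0.51, limma), with unadjusted p-values of 0.00696 and 0.0108, the only 2 under 0.05. These fits kept the genes tested with all 6 libraries. Only 23 of the 30 reach a mean of 0.5 TPM without *Prdm16*SMKO replicate 1, and 12 without both libraries.

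**Figure D3:**
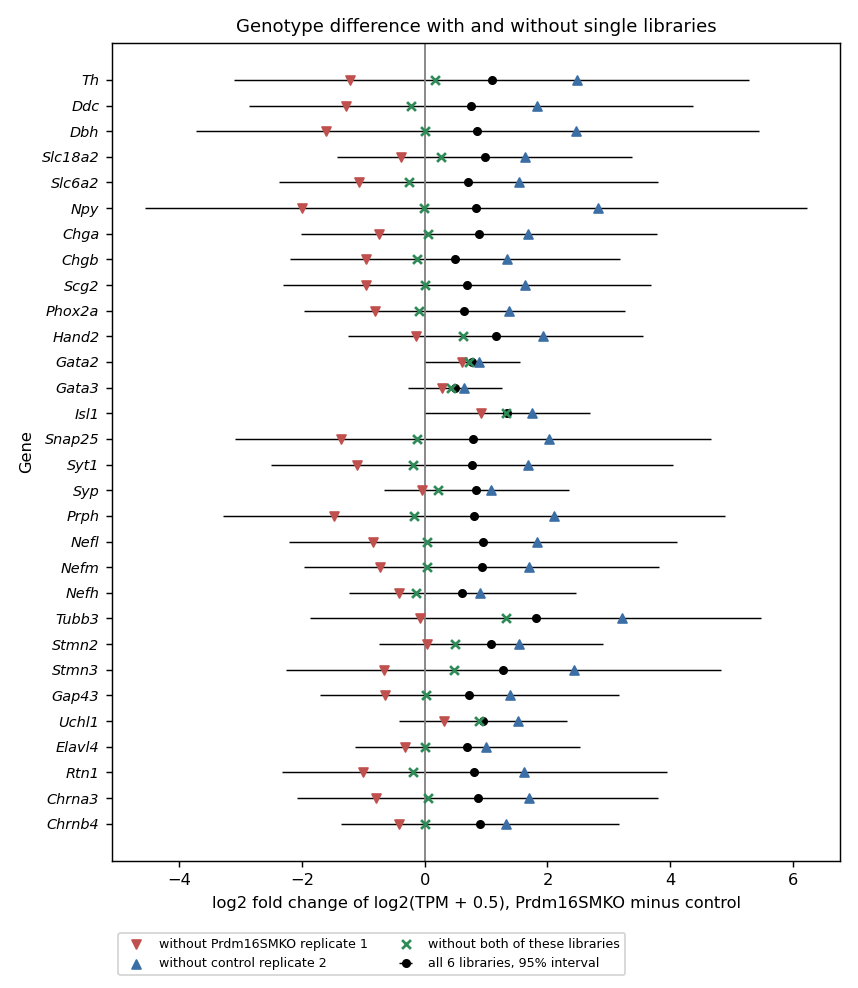
Fitted log2 fold change of log2(TPM + 0.5), *Prdm16*SMKO minus control, for each of the 30 genes. Black points with bars are all 6 libraries with 95% intervals, and coloured marks leave out *Prdm16*SMKO replicate 1 (red), control replicate 2 (blue) or both (green). All 30 black intervals include 0, and 25 red marks lie below 0 while all blue marks lie above it.

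Further neuronal genes and markers of neighbouring cells were read in the same libraries. Of 14 other genes of the noradrenergic lineage 11 were tested, and 0 passed the test in either direction (limma, 0 with an unadjusted p under 0.05). Of 26 further pan-neuronal genes, all tested, 0 passed (limma, 0 with an unadjusted p under 0.05). Over all tested genes these shares were 0.355% adjusted and 8.74% unadjusted. *Prdm16*SMKO replicate 1 was highest for 10 of the 14 and 25 of the 26. It was highest with control replicate 2 second for 6 of the 14 and 23 of the 26, against 8.39% of all tested genes. The cholinergic markers *Chat*, *Slc18a3* and *Slc5a7* were listed at 0 in all 6 libraries. *Pnmt*, which turns noradrenaline into adrenaline in the adrenal medulla, was at 0.93 TPM in *Prdm16*SMKO replicate 1 and between 0.15 and 0.23 TPM elsewhere. The 9 adrenal cortex markers summed to 1.05 to 1.89 TPM in all libraries, with *Star*, the steroidogenic cholesterol carrier, at 0.95 to 1.69 TPM. Of the sensory neuron markers, *Calca* was listed at 0 in every library but *Prdm16*SMKO replicate 3 (0.56 TPM), whereas the 10 markers summed to 14.2 TPM in *Prdm16*SMKO replicate 1 and 0.74 to 2.23 TPM elsewhere. Of that 14.2 TPM, *Avil* made up 13.4 TPM (a gene named after its values were seen).

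Glial markers overlapped with the neuronal pattern only in part. The 15 Schwann and satellite glia genes summed to 42.0, 124 and 34.5 TPM in the controls and to 273, 120 and 43.4 TPM in *Prdm16*SMKO. *Sox10*, the glial lineage factor, was at 1.19, 3.47 and 0.59 TPM in the controls and at 8.22, 4.21 and 1.31 TPM in *Prdm16*SMKO. *Prdm16*SMKO replicate 2 thus had a glial sum close to that of control replicate 2, while its *Th*, *Dbh* and *Npy* were at 0.13, 0 and 0.32 TPM. Of the 15 glial genes 0 passed adjustment and 3 had an unadjusted p under 0.05 (8.74% of all tested genes), all higher in *Prdm16*SMKO: *S100b* (log2 fold change 0.71), *Foxd3* (1.26) and *Scn7a* (0.71). With array weights *S100b* and *Scn7a* passed adjustment (adjusted p = 0.0284 and 0.0476, limma), a setting that called 494 genes against 56 in the main fit.

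Other tissue markers were also unequal. Skeletal muscle markers summed to 66.4 TPM in *Prdm16*SMKO replicate 1 and to 2.78 to 9.3 TPM in the other 5 libraries. Brown adipocyte markers summed to 274, 110 and 79.9 TPM in the controls and to 129, 11.2 and 727 TPM in *Prdm16*SMKO, and white adipocyte markers to 181, 85.8 and 70.5 TPM and to 122, 136 and 531 TPM. The fat sums were thus highest in *Prdm16*SMKO replicate 3 and not in *Prdm16*SMKO replicate 1. The 30 sympathetic neuron genes summed to 93.0 TPM in *Prdm16*SMKO replicate 3 and to 1426 TPM in *Prdm16*SMKO replicate 1. *Uchl1* made up 70.1 TPM of the first of these sums and 293 TPM of the second. The part of muscle, fat or nerve left on the aorta in the levels of the 30 genes was not tested.

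**Figure D4:**
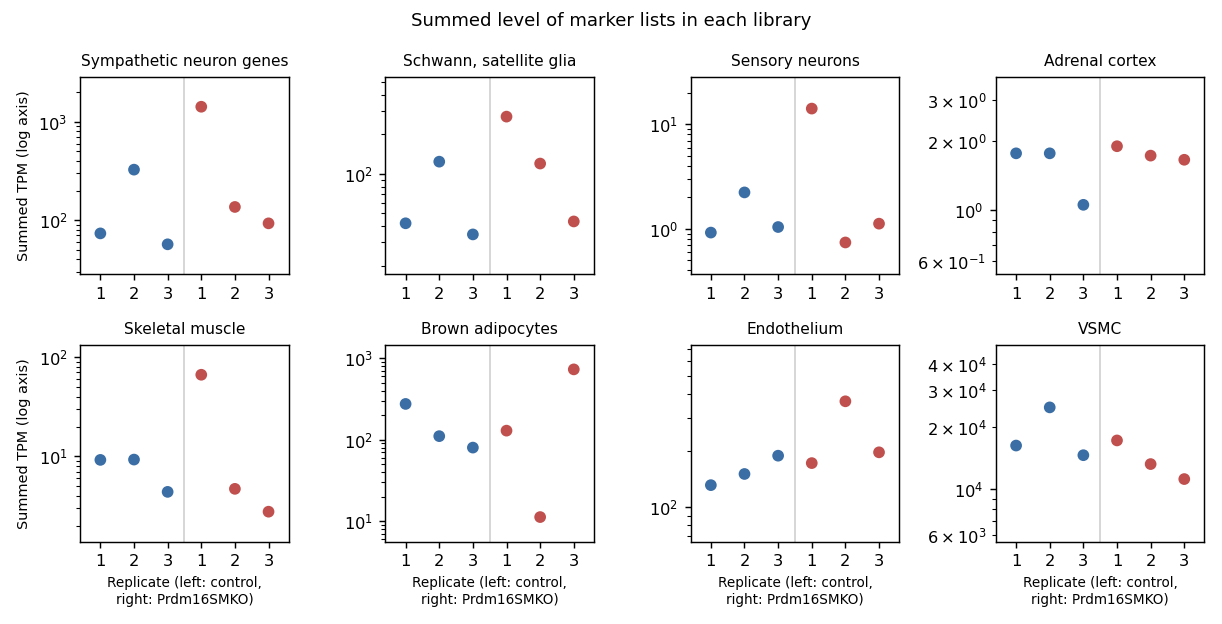
Summed TPM of 8 marker lists in each library, on log axes with their own ranges (blue, control replicates 1 to 3; red, *Prdm16*SMKO replicates 1 to 3). Sympathetic neuron genes are highest in *Prdm16*SMKO replicate 1 (1426 TPM) and control replicate 2 (327 TPM), and in the other libraries most of their sum is *Uchl1*. The glial sums add *Prdm16*SMKO replicate 2, brown adipocyte markers are highest in *Prdm16*SMKO replicate 3, and adrenal cortex markers stay between 1.05 and 1.89 TPM.

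The target tissue of the nerve has its own genes, the receptors for noradrenaline and neuropeptide Y and the factors that attract or feed the axon. *Adra2b* and *Edn3*, named after their values were seen, had *Prdm16*SMKO replicate 1 highest and control replicate 2 second. In these libraries *Adra2b* was at 1.21 and 0.44 TPM and *Edn3* at 1.77 and 0.46 TPM. This order held for 1 of 9 adrenergic receptors, 0 of 4 neuropeptide Y receptors and 1 of 12 neurotrophic and guidance factors. It held for 8.39% of all tested genes. *Adra2b* averaged 0.375 TPM, under the minimum for testing, and *Edn3* was at 0.43 TPM in control replicate 3. Of the 9 adrenergic receptor genes 8 were tested, and 0 passed adjustment, against 0.355% of all tested genes (limma). At an unadjusted p under 0.05 there were 1 higher and 1 lower, against 8.74% of all tested genes (limma). *Adra1d*, the alpha-1D receptor that mediates contraction of the aorta, was at 44.4, 55.2 and 28.6 TPM in the controls and at 25.2, 25.8 and 18.7 TPM in *Prdm16*SMKO, so the groups did not overlap (log2 fold change -0.83, SE 0.25, unadjusted p = 0.00938, adjusted p = 0.338, limma). *Adra2a* was at 4.53, 2.98 and 8.69 TPM in the controls and at 9.55, 19.1 and 8.3 TPM in *Prdm16*SMKO (log2 fold change 1.14, adjusted p = 0.437, limma), with overlapping groups. With array weights both passed adjustment (adjusted p = 0.0293 and 0.0467, limma), a setting that called 494 genes against 56 in the main fit. Neither passed under any other alternative.

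Of the 4 neuropeptide Y receptor genes, *Npy4r* came nearest to the threshold. It was at 0.19, 0.22 and 0.18 TPM in the controls and at 1.62, 2.07 and 1.86 TPM in *Prdm16*SMKO. The groups were clearly apart, at 0.197 ± 0.0208 and 1.85 ± 0.225 TPM (SD, n = 3 each), with a log2 fold change of 1.75 (SE 0.29, adjusted p = 0.0599, limma). It passed adjustment with median-of-ratios size factors (adjusted p = 0.0309), with no mean-variance trend (0.0127) and with array weights (0.00735), all by limma. Array weights called 494 genes over the whole table, against 56 in the main fit. *Npy4r* did not pass with pseudocounts of 0.1 and 1 TPM (0.0573 and 0.0622), no minimum (0.111) or rescaling without mitochondrial genes (0.0584, limma). It did not pass in any fit without 1 library (adjusted p from 0.0948 to 0.225, limma), nor with a replicate block. Its control values lay below the 0.5 TPM added before the fit. The part of neuronal RNA in the *Npy4r* levels was not tested.

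The 12 neurotrophic and guidance factors gave 11 tested genes, 4 with fitted values above 0 and 7 below, 0 past adjustment and 5 at an unadjusted p under 0.05, against 8.74% of all tested genes (limma). *Nrtn*, neurturin, was at 90.6, 110 and 75.0 TPM in the controls and at 66.4, 56.4 and 52.5 TPM in *Prdm16*SMKO (log2 fold change -0.64, SE 0.18, adjusted p = 0.293, limma). *Artn*, artemin, a guidance factor of sympathetic axons along vessels, was at 4.64, 2.28 and 2.67 TPM in the controls and at 1.49, 1.56 and 2.0 TPM in *Prdm16*SMKO (log2 fold change -0.71, adjusted p = 0.504, limma). For both of these factors the groups did not overlap. The repellent semaphorins *Sema3a* and *Sema3f* had log2 fold changes of -0.50 and -0.73 (adjusted p = 0.472 and 0.252, limma), also without overlap between the groups, *Sema3f* being at 82.2, 102 and 65.6 TPM in the controls and at 48.6, 56.6 and 42.9 TPM in *Prdm16*SMKO. With array weights *Nrtn*, *Artn* and *Sema3f* passed adjustment (adjusted p = 0.0345, 0.0414 and 0.0293, limma), and with median-of-ratios size factors *Nrtn* and *Sema3f* did (0.0384 and 0.0366, limma). These 2 settings called 494 and 153 genes over the whole table, against 56 in the main fit. Of the 6 VSMC markers, 5 had fitted values below 0 and 1, *Myocd*, above (0.13), and 0 passed adjustment (limma). *Cnn1* and *Smtn* had an unadjusted p under 0.05, against 8.74% of all tested genes (log2 fold changes -0.48 and -0.53, limma). *Myh11*, *Acta2* and *Tagln* did not (-0.23, -0.47 and -0.32). The part of the VSMC share of the tissue in the levels of *Adra1d*, *Nrtn* and *Sema3f* was not tested.

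**Figure D5:**
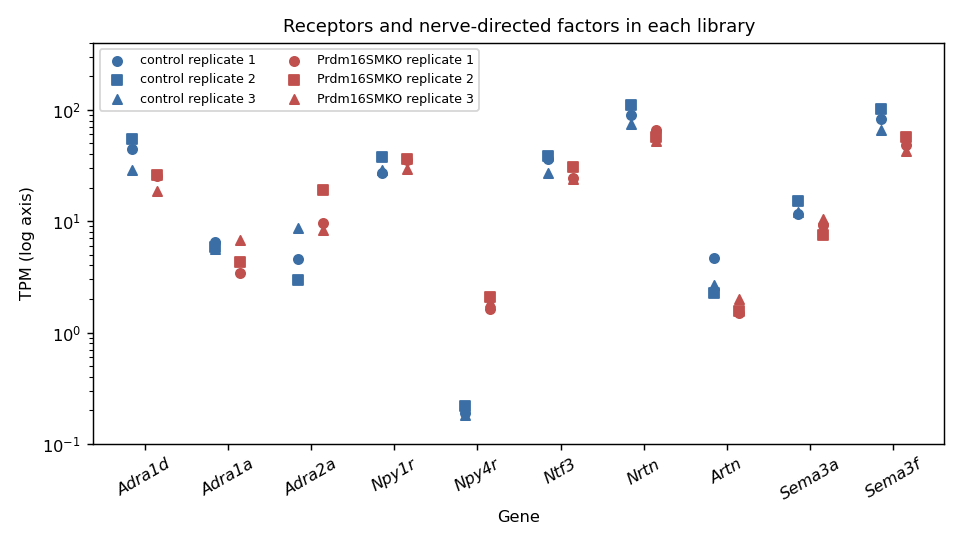
TPM (log axis) of 10 receptor and nerve-directed factor genes in each library, with blue for control and red for *Prdm16*SMKO and the marker shape for the replicate. *Npy4r* lies at 0.18 to 0.22 TPM in the controls and 1.62 to 2.07 TPM in *Prdm16*SMKO, and *Adra1d*, *Nrtn* and *Sema3f* are lower in every *Prdm16*SMKO library than in any control.

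Some of the levels may hold reads of neighbouring genes. Exons of 8 of the 30 genes overlap exons of a gene on the other strand in the GENCODE M21 annotation: *Slc18a2*, *Phox2a*, *Hand2*, *Gata3*, *Syp*, *Nefl*, *Nefm* and *Uchl1*. *Gata3* also overlaps a gene on its own strand. Whether reads were counted by strand was not given in the sources used here, so the share of the overlapping genes in these 8 levels is unknown. The other 22 genes, which include *Th*, *Dbh*, *Npy* and *Snap25*, had no such overlap.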

How the data were processed

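The authors sequenced polyadenylated RNA of 3 control and 3 *Prdm16*SMKO abdominal aortas as 151 bp pairs and deposited 1 table of TPM per gene and library, given to 2 decimals. The submitters' processing notes name cutadapt 2.3, FastQC 0.11.8, STAR 2.7.8a, RSEM 1.3.3, MultiQC 1.7, bcl2fastq and GRCm38, and the annotation, filters and strand setting are not given in the sources used here. TPM keeps neither read totals nor counting error, so a rise of one abundant class lowers all other values, and no count model was used. Groups came from the sample titles. The 15775 genes averaging 0.5 TPM or more over the 6 libraries were tested with limma 3.58.1 in R 4.3.3, with a mean-variance trend, on log2(TPM + 0.5), which understates the change of low genes, and Benjamini-Hochberg adjustment over all of them. The threshold for a call was an adjusted p of 0.05. Scripts were tested on simulated data. P-values measure the spread between 3 libraries per group, and a two-sided exact test of 3 against 3 cannot go below 0.1.

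The 30 genes and all marker lists were written from general knowledge and chosen with earlier results of these data known. Values in every library are given for the 5 noradrenaline genes, for members averaging 5 TPM or more and for those with an unadjusted p under 0.05 or groups that do not overlap (none). Values of *Isl1*, *Gata3* and other members below that mean were added after they were seen. Of genes outside the 30, those named are *Prdm16*, defining markers, and list genes with an unadjusted p under 0.05, and others, such as *Avil* and *Npy1r*, after their values were seen. Genes overlapping in position were found in GENCODE M21 (GRCm38), and promoters came from RefSeq GRCm38.p6, where *Snap25*, *Stmn2*, *Nefl*, *Nefm*, *Nefh*, *Slc6a2* and *Gap43* were not matched. Alternatives were pseudocounts of 0.1 and 1 TPM, no minimum and a minimum mean of 2 TPM, median-of-ratios size factors, rescaling without mitochondrial genes, no trend, array weights, a replicate block, and leaving out each library. Some results for other genes of these lists are not reported here.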

Additional observations from a re-analysis of the deposited data

How the results depend on the processing

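The call of 0 of the 30 sympathetic neuron genes was the same under every alternative run, and *Gata2*, *Isl1*, *Stmn2*, *Tubb3* and *Uchl1* were the genes under an unadjusted 0.05 with array weights. The median log2 fold change of the 30 genes ran from -0.74 to 1.76 when single libraries were left out (the negative end without *Prdm16*SMKO replicate 1), was 1.53 with array weights, and lay between 0.80 and 0.88 under the other alternatives with all 6 libraries. The number of genes called over the whole table, 56, was 10 with no expression minimum, 153 with median-of-ratios size factors, 33 with no trend, 494 with array weights, 1 without both libraries high in sympathetic neuron genes (an alternative chosen after seeing the data), and 2 to 35 when single libraries were left out. With a replicate block it was 4, and the block called 0 of the 30. Whether replicate numbers pair the samples was not given in the sources used here. Same-numbered libraries had deviations correlated at -0.131, -0.110 and 0.0188, which with 3 libraries per group cannot decide it. No blocked value is given beside the results.

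Over the fits without 1 library, the log2 fold changes that changed sign ran as follows: *Th* -1.22 to 2.47, *Ddc* -1.29 to 1.97, *Dbh* -1.61 to 2.47, *Slc18a2* -0.39 to 1.75, *Slc6a2* -1.07 to 1.83, *Npy* -2.00 to 2.82, *Chga* -0.75 to 1.78, *Chgb* -0.96 to 1.37, *Scg2* -0.95 to 1.63, *Phox2a* -0.82 to 1.38, *Hand2* -0.15 to 1.95, *Snap25* -1.36 to 2.02, *Syt1* -1.10 to 1.72, *Syp* -0.040 to 1.34, *Prph* -1.47 to 2.10, *Nefl* -0.84 to 1.86, *Nefm* -0.72 to 1.78, *Nefh* -0.43 to 1.15, *Tubb3* -0.078 to 3.22, *Stmn3* -0.67 to 2.43, *Gap43* -0.65 to 1.63, *Elavl4* -0.31 to 1.20, *Rtn1* -1.01 to 1.85, *Chrna3* -0.79 to 1.72 and *Chrnb4* -0.41 to 1.56. The lowest value of each came without *Prdm16*SMKO replicate 1, and *Npy* and *Chgb* were also below 0 without control replicate 1 (-0.34) and control replicate 3 (-0.0031), respectively. Without both high libraries the values below 0 were *Ddc* -0.22, *Slc6a2* -0.25, *Npy* -0.017, *Chgb* -0.13, *Phox2a* -0.095, *Snap25* -0.13, *Syt1* -0.19, *Prph* -0.17, *Nefh* -0.15 and *Rtn1* -0.19. Under the other alternatives no direction changed among the 48 genes refitted, which are the 30 genes, the genes of the other lists with an unadjusted p under 0.05 and *Prdm16*. The cause was not tested. Depth per library is unknown, and at 2 decimals a level listed at 0 does not show that a transcript was absent.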

Other observations

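Other genes shared the pattern of the sympathetic neuron genes across the 6 libraries. Of the 1324 tested genes with *Prdm16*SMKO replicate 1 highest and control replicate 2 second, 43 had a level in control replicate 2 more than 3-fold above the highest of the other 4 libraries with 0.5 TPM added to both, and 18 of these 43 were among the 30. The most separated genes outside the 30, picked after their values were seen, included *Htr3a*, *Bex2*, *Syt4*, *Slc10a4*, *Pcsk1n*, *Nsg2*, *Sult4a1*, *Gm49027* and *Ngfr*. *Htr3a*, a subunit of the serotonin-gated ion channel, was at 3.4 TPM in control replicate 2 and 26.1 TPM in *Prdm16*SMKO replicate 1 and was listed at 0 in the other 4 libraries. *Slc10a4*, a transporter-like protein of monoaminergic and cholinergic vesicles, was at 2.9 and 17.1 TPM in the same libraries and at 0 in the others. *Ngfr*, the p75 neurotrophin receptor, was at 7.24 and 48.6 TPM against 0.36 to 0.91 TPM in the others. For the genes named the ratio of *Prdm16*SMKO replicate 1 to control replicate 2 ran from 2.95 (*Gm49027*) to 9.02 (*Sult4a1*), and likeness was measured over 6 libraries only.

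Not every noradrenergic gene shared the pattern. *Insm1* was at 0.03 TPM or less in all 6 libraries. *Penk*, the enkephalin precursor, which chromaffin cells and also other cells express, was at 13.8, 14.0 and 16.4 TPM in the controls and at 15.8, 54.2 and 32.3 TPM in *Prdm16*SMKO (log2 fold change 1.02, adjusted p = 0.456, limma), with its lowest *Prdm16*SMKO value in the library highest in *Th*. *Npy1r*, the main neuropeptide Y receptor of vascular smooth muscle, was at 26.9 to 37.6 TPM in the controls and 29.3 to 36.2 TPM in *Prdm16*SMKO (log2 fold change 0.13, SE 0.18).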
